A study of Mus musculus with 88 samples.

Results

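The uronyl sulfotransferase gene Ust and 8 related genes that put sulfate on the sugar chains of proteoglycans were followed in single mouse oocytes from young and aged females. The 9 genes were taken as a list of symbols, and each was matched to 1 of the 38540 features of the deposited count table. Ust was matched by the name the study's own feature list gives it, and the other 8 by the overlap of their feature with a gene of the GENCODE M21 annotation on the same strand. Ust was selected on its aged over young difference in these same oocytes, so its aged over young values are a description, and no test supports them. The oocytes were fully grown germinal vesicle (GV) oocytes of virgin C57BL/6Babr females that were 12 weeks old (young) or 44 to 54 weeks old (aged), and their RNA was read as Smart-seq2 cDNA in parallel with the methylation of their DNA. The main set held 87 oocytes, 42 young and 45 aged, with 30 non-surrounded nucleolus (NSN) and 12 surrounded nucleolus (SN) oocytes in the young and 37 NSN and 8 SN oocytes in the aged group. In SN oocytes chromatin forms a ring around the nucleolus, which marks the later stage. The study predicted this configuration from the transcripts of the same oocytes, so it is not independent of the counts. No label ties an oocyte to its mouse, so each age counts as 1 sample, no p-value was computed, and the standard deviation (SD) over oocytes mixes differences within and between mice.

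Glycosaminoglycans are long sugar chains attached to core proteins, and sulfate groups added in the Golgi set which proteins bind to them. On heparan sulfate, NDST enzymes replace acetyl by sulfate groups on glucosamine, after which HS2ST1 sulfates the uronic acid and HS6ST1 the glucosamine. On chondroitin and dermatan sulfate, CHST11, CHST12 and CHST14 sulfate the N-acetylgalactosamine at one position, CHST15 adds another sulfate to the same sugar, and UST sulfates the neighbouring uronic acid. Chondroitin, dermatan and heparan sulfate proteoglycans are part of the follicle, including the matrix that cumulus cells lay down around the oocyte before ovulation.

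The counted Ust feature differs from the annotated gene at its 5′ end, so the first annotated exon it holds and the annotated promoter are given first. The sequence at the feature's own 5′ end, in the third intron, is not shown. The feature TCONS_00011245 lies on the minus strand of chromosome 10 of GRCm38, at chr10:8204753-8307640, and the annotated gene ENSMUSG00000047712.8 spans chr10:8204756-8518825, so that both end at nearly the same base. Its 5′ end lies 211 kb downstream of the annotated start, in the third intron. Of the 8 exons of the coding transcript ENSMUST00000061601.8, exons 4 to 8 lie inside the feature and exons 1 to 3 outside, which leaves 771 of 1221 coding bases inside. The feature begins 153 bases upstream of exon 4, at chr10:8307408-8307487, and 5398 bases upstream of the start of a shorter annotated noncoding transcript of the gene. The junction into exon 4 of the coding transcript is shown because exon 4 is the first annotated exon that the feature holds. The last 30 bases of exon 3, which lies outside the feature, are in lower case and the 80 bases of exon 4 in capitals.
Ust exon 3 end and exon 4: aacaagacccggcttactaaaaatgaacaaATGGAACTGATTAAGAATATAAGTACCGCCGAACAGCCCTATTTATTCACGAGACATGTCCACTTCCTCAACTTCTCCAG
The annotated promoters of Ust, Hs2st1 and Chst11, the 3 of the 9 genes with the highest levels per kilobase of exon, are shown for comparison, from 250 bases before to 50 after the start in RefSeq on GRCm38.p6, with CG dinucleotides in capitals. They lie at chr10:8518776-8519075 on the minus strand (Ust), chr3:144570167-144570466 on the minus strand (Hs2st1) and chr10:82985247-82985546 on the plus strand (Chst11).
Ust promoter: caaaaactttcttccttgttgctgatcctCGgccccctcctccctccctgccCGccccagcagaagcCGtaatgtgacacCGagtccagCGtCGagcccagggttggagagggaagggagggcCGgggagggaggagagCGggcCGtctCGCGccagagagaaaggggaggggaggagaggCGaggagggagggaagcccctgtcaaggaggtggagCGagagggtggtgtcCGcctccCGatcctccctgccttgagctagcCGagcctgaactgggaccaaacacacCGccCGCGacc
Hs2st1 promoter: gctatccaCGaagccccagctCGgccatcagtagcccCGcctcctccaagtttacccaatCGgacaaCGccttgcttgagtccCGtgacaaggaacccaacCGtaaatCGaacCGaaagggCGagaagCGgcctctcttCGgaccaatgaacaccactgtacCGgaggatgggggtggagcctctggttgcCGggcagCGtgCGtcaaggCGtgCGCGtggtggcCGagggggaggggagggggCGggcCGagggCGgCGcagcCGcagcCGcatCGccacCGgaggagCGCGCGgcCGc
Chst11 promoter: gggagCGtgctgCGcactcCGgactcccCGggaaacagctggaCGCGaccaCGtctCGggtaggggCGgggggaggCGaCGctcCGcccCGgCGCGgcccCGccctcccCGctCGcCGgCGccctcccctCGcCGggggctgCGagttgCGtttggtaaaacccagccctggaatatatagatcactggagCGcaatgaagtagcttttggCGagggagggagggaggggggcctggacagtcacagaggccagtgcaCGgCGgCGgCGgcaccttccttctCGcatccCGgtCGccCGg
The dinucleotide CG, searched as these letters, occurred 19 times in the Ust window, 32 times in the Hs2st1 window and 34 times in the Chst11 window. The median over the 32851 promoters of the table was 7, and 73.5% of them had as few as Ust or fewer. All 3 annotated promoters were thus above that median in CG, but only the Hs2st1 and Chst11 features start inside the window shown. Among the 8 members with a promoter in the table, Ust was the 1 whose feature does not start in it. Ndst1 had no entry.

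**Figure D1:**
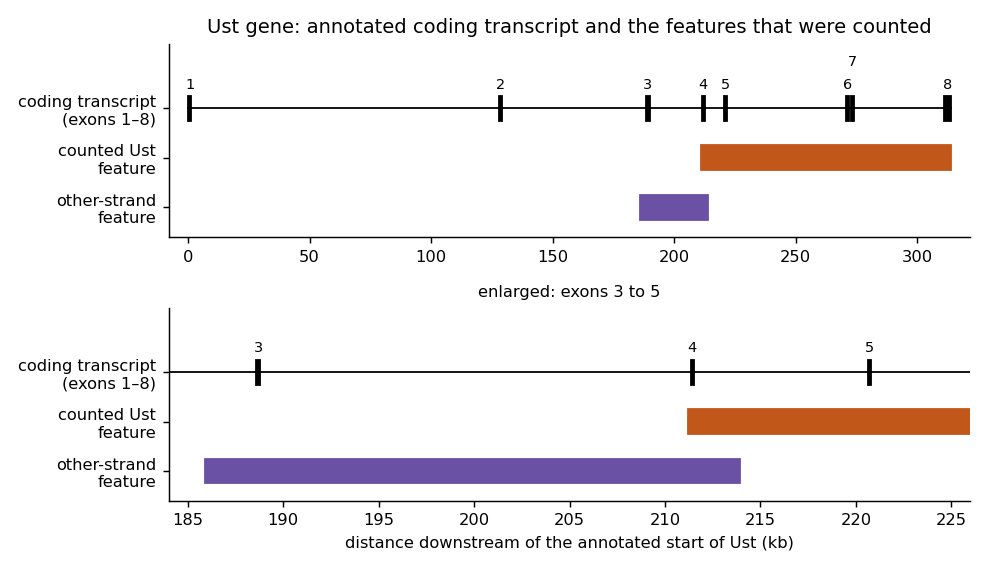
The Ust gene drawn by distance in kb downstream of its annotated start, with the 8 exons of the coding transcript (black, widened where too narrow to see), the counted feature (orange) and the feature on the other strand (purple); the lower panel enlarges exons 3 to 5. The counted feature starts 211 kb into the gene, just before exon 4, and leaves exons 1 to 3 out.

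Ust was detected in each of the 87 oocytes, at levels that differed widely between oocytes of the same group. Levels are given as CPM, the feature's count scaled to a total of 1000000 counts in the oocyte. In young oocytes the lowest level was 1.23 CPM, the median 14.5 CPM and the highest 74.1 CPM. In aged oocytes the lowest was 3.73 CPM, the median 44.6 CPM and the highest 104 CPM. Aged oocytes were thus mostly higher, with wide overlap of the groups: 39 of 45 aged oocytes (86.7%) lay above the young median, while 7 of 45 lay above the highest young oocyte. Conversely, 6 of 42 young oocytes (14.3%) lay above the aged median. Over all pairs of 1 aged and 1 young oocyte, the aged oocyte was the higher in 77.9%. Levels under 10 CPM occurred in 15 of 42 young oocytes and 3 of 45 aged oocytes, and levels over 50 CPM in 3 young and 18 aged oocytes. The young group therefore held most of the oocytes with little Ust RNA, and the aged group most of those with much.

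With the counts of a group summed, Ust reached 20.4 CPM in the young (95% Poisson interval 19.7 to 21.2) and 46.0 CPM in the aged group (44.8 to 47.3), which is 2.25-fold more, with a log2 ratio of 1.17 (95% interval 1.10 to 1.24). These intervals, here and below, cover counting error only and leave out the spread between oocytes, whose SD was 18.2 CPM in the young and 26.7 CPM in the aged group. A feature was called higher or lower at 1.5-fold or more, if it reached 1 CPM in a group and 3 counts in both. By this rule 0.497% of 16711 features were higher in aged oocytes and 2.4% were lower, and 99.9% had a lower ratio than Ust, as the choice of the gene implies.

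The excess of Ust RNA in aged oocytes was larger among NSN than among SN oocytes. In young NSN oocytes the lowest, median and highest levels were 1.23, 12.6 and 74.1 CPM, and in aged NSN oocytes 3.73, 45.5 and 104 CPM. The pooled levels were 17.8 CPM in young and 46.4 CPM in aged NSN oocytes, a log2 ratio of 1.39 (1.31 to 1.47). Among all features, 0.764% were at least 1.5-fold higher and 3.02% at least 1.5-fold lower in aged than in young NSN oocytes. In young SN oocytes the lowest, median and highest levels were 4.39, 24.7 and 63.1 CPM. The 8 aged SN oocytes ranged from 15.9 to 74.6 CPM with a median of 33.97 CPM, so that 7 of the 8 lay inside the young SN range. The pooled SN levels were 27.01 and 43.9 CPM, a log2 ratio of 0.70 (0.57 to 0.83), in a comparison in which 6.56% of features were higher and 5.52% lower by the same rule. The ratio in SN oocytes was 0.51 from the mean over oocytes and 0.46 from the median, both under 1.5-fold, and 0.14 without the aged oocytes numbered 41 to 48. With 1 sample per group, the difference between the NSN and SN ratios was not tested.

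Seen the other way, Ust was higher in SN than in NSN oocytes of young mice and not in those of aged mice. The log2 ratio of SN over NSN was 0.61 (0.49 to 0.72) in young oocytes, beside 8.16% of features at least 1.5-fold higher and 2% lower. At 1.52-fold it was just past the limit, and in some alternatives given below it fell short. In aged oocytes the log2 ratio was -0.08 (-0.19 to 0.02), beside 16.5% of features higher and 5.5% lower. The young value was 0.27 without the young oocytes numbered 33 to 39, a run that holds 6 of the 12 young SN oocytes. The aged value changed sign with the oocytes included, from -0.75 without those numbered 41 to 48 to 0.19 without those numbered 25 to 31.

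The oocytes are numbered in 6 unbroken runs, 3 per age, whose meaning is not stated in the labels. The pooled Ust levels of the young runs were 17.6 CPM (oocytes 1 to 7), 21.04 CPM (17 to 24) and 22.9 CPM (33 to 39). Those of the aged runs were 42.5 CPM (9 to 16), 51.4 CPM (25 to 31) and 44.1 CPM (41 to 48). Hence all 3 aged runs lay above all 3 young runs, and the same held in NSN oocytes, where young runs spanned 14.9 to 19.4 CPM and aged runs 40.5 to 55.2 CPM. The runs divide the same oocytes in which Ust was chosen on this difference, so their separation is not independent support. In SN oocytes the runs overlapped, at 7.599 to 33.5 CPM in young and 20.1 to 56.9 CPM in aged. Single levels spread widely within each run. In the young oocytes 1 to 7, they ran from 1.23 to 74.1 CPM with a median of 8.47 CPM, in those numbered 17 to 24 from 3.68 to 49.6 CPM with a median of 17.5 CPM, and in those numbered 33 to 39 from 4.39 to 63.1 CPM with a median of 16.5 CPM. In the aged oocytes 9 to 16 they ran from 10.2 to 104 CPM with a median of 34.5 CPM, in those numbered 25 to 31 from 6.37 to 98.4 CPM with a median of 46.8 CPM, and in those numbered 41 to 48 from 3.73 to 87.1 CPM with a median of 45.5 CPM.

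**Figure D2:**
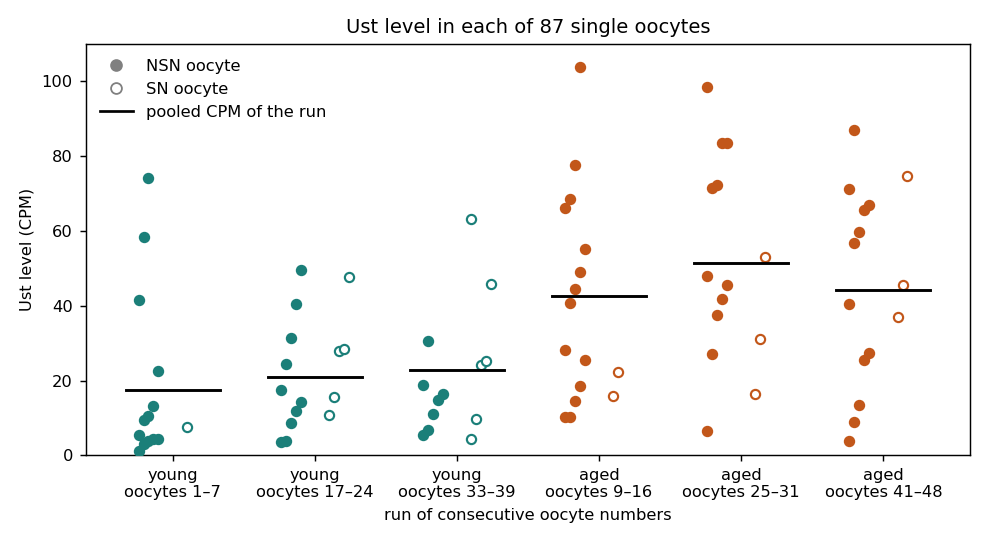
Ust level in CPM (vertical axis) of each of the 87 oocytes, by run of consecutive oocyte numbers (horizontal axis), with NSN oocytes filled, SN oocytes open, and the pooled CPM of each run as a black line. The 3 aged runs have pooled levels of 42.5 to 51.4 CPM and the 3 young runs of 17.6 to 22.9 CPM, while single oocytes of all runs overlap.

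The spread of Ust between oocytes was itself large for a gene of its level. The squared coefficient of variation (CV2) less counting noise was 0.754 over young and 0.333 over aged oocytes. For the 4184 features with a pooled level within 2-fold of that of Ust, the median was 0.0332 in young and 0.0454 in aged oocytes, and 99.9% and 98.7% of them were below Ust. Keeping to NSN oocytes gave 0.920 in young and 0.333 in aged oocytes. Relative to its mean, Ust therefore varied more in the young group, in which many oocytes were near the bottom of the range. Across the 87 oocytes, the Pearson correlation of Ust, as log2(CPM + 1), with the log2 total count was -0.18, and 0.0030 after the mean of each age and configuration group was subtracted.

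The feature TCONS_00008166 on the plus strand, at chr10:8304916-8332942, shares 2725 bases with the Ust feature, exon 4 among them, and extends upstream over exon 3. The study's text names no step that keeps the strand of the RNA and does not state whether reads were counted by strand. Reads of both strands therefore cannot be told apart in the shared bases, and reads of Ust may be among the counts of TCONS_00008166. This other-strand feature was at 1.94 CPM in the young (1.71 to 2.19) and 4.45 CPM in the aged group (4.07 to 4.86). Its pooled counts amounted to 9.52 per 100 Ust counts in young and 9.68 in aged oocytes, and Ust had more counts than it in each of the 87 oocytes. The feature was counted in 25 of 42 young and 40 of 45 aged oocytes, and in 21 and 39 when each oocyte was thinned to 900000 counts. Its level and that of Ust went together across oocytes, with r = 0.83 for log2(CPM + 1) over the 87 oocytes, and 0.79 after subtracting the group means. The 2 levels come from the same libraries and overlapping bases, so this is a description with no test.

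**Figure D3:**
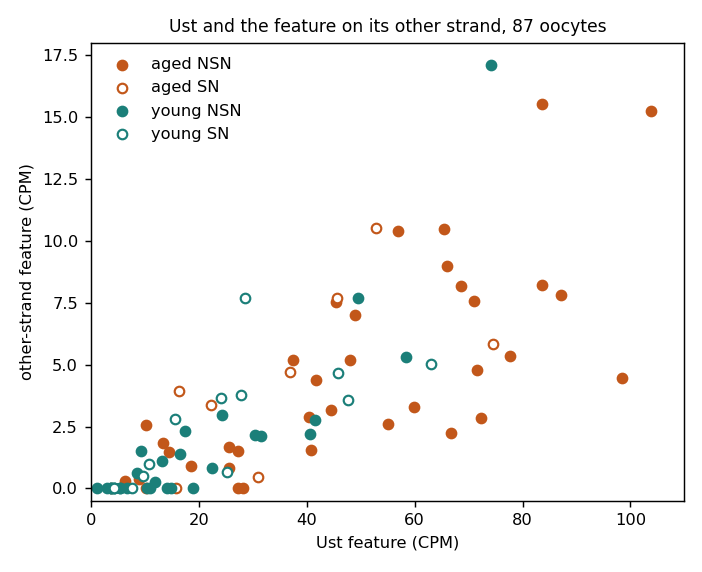
Level of the other-strand feature TCONS_00008166 against that of the Ust feature, both in CPM, with 1 point per oocyte (87 oocytes, coloured by age, NSN filled and SN open). The other-strand feature reaches 17.1 CPM where Ust reaches 74.1 CPM, and the levels go together (r = 0.83 on log2(CPM + 1)).

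The other 8 genes were much closer between the ages than Ust. Of the 9 genes, 8 passed the minimum level in the aged over young comparison. By the 1.5-fold rule Ust alone was higher and none was lower, beside 0.497% and 2.4% of all features. Ust was chosen on this difference, so its call was set in advance and does not show an excess in the list. The median log2 ratio of the 8 genes was 0.01, that of all 16711 features -0.01, and 5 ratios were above 0 and 3 below. In NSN oocytes Chst15 was the 1 gene called lower, with Ust the 1 called higher, beside 3.02% and 0.764% of all features, and the median was -0.0046. In SN oocytes Ust alone was past the limit, where 6.56% of all features were higher and 5.52% lower.

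Of the chondroitin and dermatan sulfate enzymes, Chst11 (TCONS_00009921, chr10:82985498-83195903, plus strand), a chondroitin 4-O-sulfotransferase, was counted in every oocyte. Its lowest, median and highest levels were 9.98, 24.9 and 43.5 CPM in young and 12.5, 24.5 and 48.7 CPM in aged oocytes. The 2 distributions coincided almost completely, with pooled levels of 25.97 and 26.22 CPM and a log2 ratio of 0.01 (-0.06 to 0.08). Chst11 was lower in SN than in NSN oocytes at both ages, by log2 ratios of -0.30 (-0.41 to -0.19) in young and -0.32 (-0.47 to -0.17) in aged oocytes. In SN oocytes its level was above the NSN median in 16.7% of the young and 12.5% of the aged oocytes. Neither difference reached 1.5-fold. Its runs spanned 21.9 to 29.3 CPM in young and 21.3 to 30.6 CPM in aged oocytes.

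Chst12 (TCONS_00079723, chr5:140505550-140525724, plus strand), a chondroitin 4-O-sulfotransferase of the same family, was likewise counted in every oocyte. Its lowest, median and highest levels were 1.34, 3.39 and 8.24 CPM in young and 0.928, 3.49 and 8.89 CPM in aged oocytes. The pooled levels of 3.65 and 3.79 CPM gave a log2 ratio of 0.06 (-0.14 to 0.25), within counting error of no difference.

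Chst15 (TCONS_00095664, chr7:132235780-132317228, minus strand), which adds the second sulfate to 4-sulfated N-acetylgalactosamine, was near the lower limit of detection. In young oocytes its median and highest levels were 0.832 and 4.44 CPM, and in aged oocytes 0.483 and 2.85 CPM, with oocytes without a count in both groups. It was counted in 33 of 42 young and 31 of 45 aged oocytes, and in 21 of 42 and 21 of 45 when each oocyte was thinned to 900000 counts. The pooled levels were 1.18 and 0.795 CPM, a log2 ratio of -0.57 (-0.96 to -0.18) that is just short of 1.5-fold, and in NSN oocytes the ratio was -0.68 (-1.13 to -0.24). All 3 aged runs (0.726 to 0.897 CPM) lay below all 3 young runs (0.923 to 1.45 CPM). However, the ratio was 0.14 among oocytes with the suffix A in their name and -1.12 among those without, and the values rest on 157 counts in young and 90 in aged oocytes.

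Chst14 (TCONS_00057590, chr2:118926497-118928585, plus strand), the dermatan 4-O-sulfotransferase, had 51 counts in all and did not pass the minimum level. It was counted in 13 of 42 young oocytes (30.95%) and 8 of 45 aged oocytes (17.8%), and after thinning in 7 and 4. Of its 25 counts in aged oocytes, 16 came from 4 of the 8 SN oocytes and 9 from 4 of the 37 NSN oocytes, or 0.804 CPM (0.459 to 1.30) and 0.0965 CPM (0.0441 to 0.183). In young oocytes the corresponding levels were 0.313 CPM (0.162 to 0.547) in SN and 0.147 CPM (0.0806 to 0.247) in NSN oocytes. The SN level was thus the higher at both ages. In the young group the log2 ratio of 1.09 (-0.16 to 2.31) was within counting error of no difference. In the aged group 8 of the 16 SN counts came from 1 oocyte.

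Of the heparan sulfate enzymes, Hs2st1 (TCONS_00068907, chr3:144429787-144570453, minus strand), the only 2-O-sulfotransferase of this chain, was counted in every oocyte. Its lowest, median and highest levels were 42.4, 66.7 and 101 CPM in young and 42.9, 72.5 and 151 CPM in aged oocytes. The aged group reached higher, with pooled levels of 65.1 and 73.5 CPM and a log2 ratio of 0.17 (0.13 to 0.22). That interval leaves out the spread over runs, which was 62.3 to 70.3 CPM in young and 59.1 to 88.1 CPM in aged oocytes. Without the aged oocytes numbered 25 to 31 the ratio was 0.04, and without those numbered 41 to 48 it was 0.36. The CV2 less counting noise was 0.0357 in young and 0.0806 in aged oocytes, and for features of like level the medians were 0.0244 and 0.0349. Over 150 and 337 bases Hs2st1 overlaps Selenof and TCONS_00066018 on the other strand, of which the first was at 182 and 199 CPM in young and aged oocytes and the second had no count, which allows up to 0.0277 CPM in the young and 0.0326 CPM in the aged group.

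Hs6st1 (TCONS_00000641, chr1:36068400-36106446, plus strand), the glucosaminyl 6-O-sulfotransferase, was counted in every oocyte and varied little between young oocytes. Its lowest, median and highest levels were 6.94, 12.4 and 20.8 CPM in young and 6.06, 12.7 and 26.4 CPM in aged oocytes. The medians and the pooled levels, 12.4 and 12.6 CPM, nearly coincided, with a log2 ratio of 0.01 (-0.09 to 0.12). The CV2 less counting noise was 0.0203 in young oocytes, with 7.38% of the 4243 features of like level below it, and 0.0767 in aged oocytes, near their median of 0.0742. The aged runs spread further (9.80 to 15.5 CPM) than the young runs (12.1 to 12.7 CPM).

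Ndst1 (TCONS_00051974, chromosome 18, minus strand), one of the bifunctional N-deacetylase/N-sulfotransferases that begin heparan sulfate modification, was counted in all but 1 oocyte. Its lowest, median and highest levels were 4.84, 9.51 and 16.5 CPM in young and 0, 8.23 and 15.8 CPM in aged oocytes. Aged oocytes were slightly lower, with pooled levels of 9.69 and 8.36 CPM and a log2 ratio of -0.21 (-0.34 to -0.09), while the runs overlapped. The ratio was -0.36 among oocytes with the suffix A in their name and -0.06 among those without. Ndst1 was the higher in SN oocytes at both ages, by 0.24 (0.07 to 0.41) in young and 0.34 (0.11 to 0.56) in aged oocytes on the log2 scale. Of the SN oocytes, 58.3% lay above the NSN median among young and 87.5% among aged oocytes. Ndst1 shares 1192 bases with the ribosomal protein gene Rps14 on the other strand, which was at 127 CPM in the young and 130 CPM in the aged group. Across oocytes the 2 levels had r = 0.10, but reads of the shared bases cannot be assigned without strand.

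Ndst2 (TCONS_00034236, chr14:20723737-20734568, minus strand), its paralogue with the same activities, was near the lower limit of detection in both groups. Its median and highest levels were 1.32 and 5.54 CPM in young and 0.813 and 4.54 CPM in aged oocytes. It was counted in 37 of 42 young and 34 of 45 aged oocytes, and after thinning in 26 and 25. The pooled levels of 1.43 and 1.03 CPM gave a log2 ratio of -0.46 (-0.81 to -0.12), with runs of 0.884 to 1.90 CPM in young and 0.729 to 1.82 CPM in aged oocytes. Without the aged oocytes numbered 9 to 16 the ratio was -0.95, and without those numbered 41 to 48 it was -0.21.

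**Figure D4:**
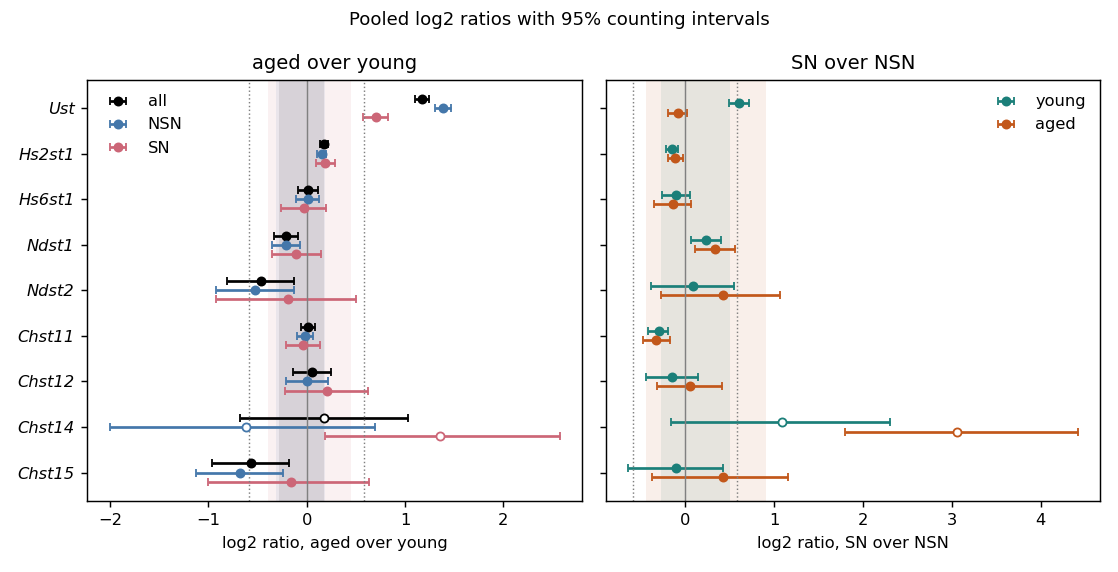
Pooled log2 ratios of the 9 genes with 95% counting intervals, aged over young on the left (all, NSN and SN oocytes) and SN over NSN on the right (young and aged), open where the gene did not pass the minimum level. Shaded bands span the 10th to 90th percentile of all features and dotted lines mark 1.5-fold, and Ust alone lies beyond the right dotted line in all 3 aged over young comparisons.

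Per kilobase of annotated exon inside the feature, the 9 genes could be put in an order in which 4 of the 8 pairs of neighbours differed by less than the larger of their SDs. Over all 87 oocytes the mean level was 8.96 CPM per kb for Ust (SD 6.94) and 8.69 for Hs2st1 (SD 2.33), a difference well within the SD, and Ust was the higher in 37 of 87 oocytes. In young oocytes the pooled level per kb was 5.44 for Ust and 8.01 for Hs2st1, and in aged oocytes 12.3 and 9.04. Chst11 followed with a mean of 4.68 CPM per kb (SD 1.52), lower than Hs2st1 in 84 of 87 oocytes, and then Hs6st1 with 2.30 (SD 0.657), lower than Chst11 in 85 of 87. Chst12 with 1.53 (SD 0.675) and Ndst1 with 1.12 (SD 0.381) differed by less than the larger SD. Ndst2 with 0.280 (SD 0.262), Chst15 with 0.147 (SD 0.156) and Chst14 with 0.0824 (SD 0.182) ended the order, and neighbours among these 3 also differed by less than the larger SD. Lengths were those of GENCODE exons, and the transcripts of the oocyte may use others.

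**Figure D5:**
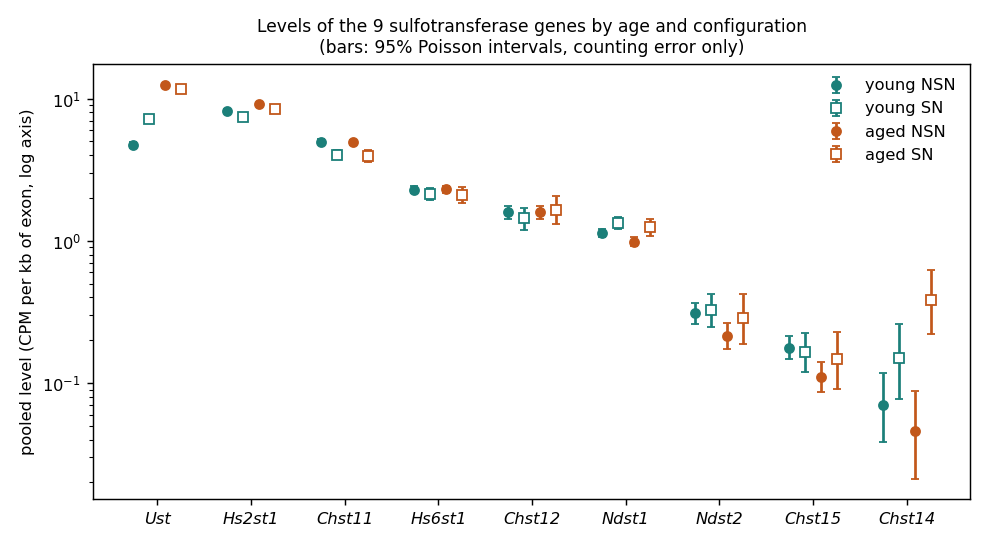
Pooled level of each of the 9 genes in CPM per kb of annotated exon (log axis) in young NSN, young SN, aged NSN and aged SN oocytes, with 95% Poisson intervals that cover counting error only. Ust goes from below Hs2st1 in young NSN oocytes (4.73 against 8.24) to above it in aged NSN oocytes (12.4 against 9.16).

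Across oocytes, 7 of the other 8 genes had correlations with Ust inside the range of most features, and Ndst2 lay below it. The correlations with Ust, on log2(CPM + 1) over the 87 oocytes, ran from -0.35 for Ndst2 to 0.16 for Hs2st1. Among 12407 features that averaged 10 or more counts per oocyte, the 10th and 90th percentiles were -0.17 and 0.17. Ndst2, Chst14 and Chst15 averaged fewer counts than that minimum, and a correlation of counts so sparse says little. The largest values were 0.55 for Il1r2, the decoy receptor of interleukin-1, 0.49 for Ypel2, 0.47 for Fxyd6, a regulator of the sodium pump, 0.47 for the unnamed TCONS_00094363 and 0.43 for Slc23a3. After the group means were subtracted they were 0.53 for Il1r2, 0.49 for TCONS_00074476, 0.45 for Gpd1l, 0.45 for Gm4319 and 0.44 for Tnfrsf21. Il1r2 led both lists, at 31.4 CPM in the young and 37.3 CPM in the aged group. These values share libraries and depth, and are descriptions.

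In the remaining steps of the pathway some listed genes passed 1.5-fold between the ages, more of them lower than higher. All of these had low levels, at most 3.98 CPM (Bpnt1 in young oocytes). Of all features 0.497% were called higher and 2.4% lower, but calls in lists this short were not weighed against these shares. Of 25 further carbohydrate sulfotransferases, 14 had a feature and 5 passed the minimum level, of which 1 was lower and none higher. Chst7, a chondroitin 6-O-sulfotransferase, was at 87.7 CPM in the young and 99.2 CPM in the aged group, Hs3st5 at 21.4 and 20.4 CPM, and Chst4, the 1 called lower, at 3.66 and 2.31 CPM (log2 ratio -0.66, -0.88 to -0.44). In the synthesis of the linker by which chains are attached, 2 of 7 genes passed and none was called, with Xylt1, which begins the linker, at 6.41 and 5.79 CPM. The heparan sulfate polymerases and the epimerase passed in 5 of 6 and were called in none, with Glce, the epimerase that makes the iduronic acid on which HS2ST1 acts, at 426 CPM in the young and 413 CPM in the aged group, and Extl3 at 121 and 116 CPM. Of the chondroitin and dermatan sulfate polymerases and epimerases, 4 of 8 passed and none was called. Chsy1 was at 232 and 227 CPM, and Dse, the epimerase of dermatan sulfate, at 74.7 and 70.6 CPM.

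In the supply of the sulfate donor PAPS all 8 genes passed and 1 was called lower. Papss1, which makes PAPS, was at 98.7 and 99.3 CPM, the transporter Slc35b3 at 69.7 and 72.2 CPM, and Bpnt1, which clears the by-product of sulfation and was named after its values were seen, at 3.98 and 2.42 CPM (log2 ratio -0.72, -0.93 to -0.51). Of the UDP-sugar genes 5 of 6 passed and 1 was called higher, the transporter Slc35d2, also named after its values were seen, at 1.06 and 1.79 CPM, while Uxs1 was at 138 and 146 CPM. Of 18 sulfatases and breakdown enzymes 13 passed and none was called, and Hyal2 was at 60.6 and 54.2 CPM. Among heparan sulfate core proteins 9 of 14 passed with 1 called lower (Agrn, 1.65 and 1.08 CPM), and Sdc1, syndecan-1, stood at 222 and 219 CPM. Among chondroitin and dermatan sulfate core proteins 7 of 14 passed with 2 called lower (Dcn, 1.26 and 0.698 CPM, and Ptprz1, 1.52 and 0.910 CPM), and Srgn, serglycin, was at 95.7 and 107 CPM. Dcn and Ptprz1 passed the minimum level through the young group alone, which favours a lower call. Agrn, Dcn and Ptprz1 were likewise named after their values were seen. Ust, which was chosen on this difference, had the largest aged over young log2 ratio, 1.17, of the genes in these lists that passed. The lists' medians lay between -0.21 and 0.17.

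Total counts ran from 976456 to 8231046 per oocyte, with a young median of 3002989 and an aged median of 2379884. The oocyte identity of the libraries was clear from 10 measured markers, with Padi6 at 6685 and 6278 CPM and Gdf9 at 4510 and 4221 CPM in young and aged oocytes. Of 12 granulosa and cumulus markers 11 had a feature, and their summed level ran from 30.4 to 134 CPM per young and from 28.6 to 156 CPM per aged oocyte, with Nr5a2 at 26.2 and 25.8 CPM, Kitl at 12.1 and 11.3 CPM, and the defining marker Foxl2 at 0.0450 and 0.0177 CPM. Inha (6.43 and 5.20 CPM, SD 6.91 and 9.64) and Gja1 (6.98 and 3.44 CPM, SD 9.24 and 5.60) varied more between oocytes relative to their level. By the 1.5-fold rule Inhba was higher and Hsd17b1 and Gja1 lower in aged oocytes. Foxl2, Inhba, Hsd17b1, Gja1 and Col1a1 were named after their values were seen. Of the 7 theca and stroma markers 5 had a feature, with sums of at most 14.3 CPM and 0 counts of Col1a1. The highest of them, Cyp11a1, was called lower in aged oocytes, at 1.12 CPM in young and 0.680 CPM in aged (log2 ratio -0.72, -1.13 to -0.31). Cyp11a1 passed the minimum level through the young group alone, which favours a lower call. Of 8 blood and immune markers 5 had a feature, with no haemoglobin count and Pecam1 at 66.9 and 63.0 CPM. The part of other cells in the levels of the 9 genes was not tested.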

How the data were processed

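The deposited table holds unnormalised counts of reads for each feature in each oocyte. Per the study's methods, the authors trimmed the single-end reads with Trim Galore, aligned them to GRCm38 with HiSat2, and counted primary alignments over a mouse oocyte transcriptome. The reads carried no molecular identifiers, and whether reads were counted by strand is not given in the sources used here. Feature names came from the 1998 rows in hand of the study's feature list, except names a spreadsheet had turned into dates, and otherwise from GENCODE M21, taking the same-strand gene whose span shared the most with the feature (shared over joint span of at least 0.3). The study's configuration calls left out 1 of 46 aged oocytes, which was used only in 1 alternative, with all 88 oocytes. No 2 columns were identical.

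For each group, the counts of its oocytes were added up and divided by the sum of their totals. Exact Poisson intervals for levels and exact conditional intervals for ratios (all 95%) used scipy 1.17.1 and cover counting error only. Shares of oocytes are given without an interval, because no label names the mouse and oocytes of the same mouse are not independent. The scripts were tested on simulated data. Alternatives used edgeR 4.0.16 TMM and DESeq2 1.42.0 size factors in R 4.3.3 (only their factors, with no test), thinning to 900000 counts, other summaries, and subsets of oocytes. The genes named were the 9 genes, features on their other strand, the up to 3 genes of each pathway list with the highest level, those with at least 10 CPM and a 1.5-fold difference, and the 5 most correlated with Ust with and without group means, and the text says where a gene outside this rule was named after its values were seen. The genes and lists were chosen with earlier results of these data known. Promoter sequences are from RefSeq (GRCm38.p6) and the exon sequence from GENCODE M21.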

Additional observations from a re-analysis of the deposited data

Results flagged for a closer look

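The Ndst2 level of 1 aged SN oocyte, 3.97 CPM, stood far above the other 7, of which the highest was at 1.68 CPM: its gap to the next was 0.658 of the group's range and above Dixon's 95% critical value for 8 values. The value rests on 4 counts in an oocyte with 1007492 counts in all. Chance flags about 1 in 20 groups, and 9 genes were looked at in this group. Without it and the other aged oocytes numbered 9 to 16, the aged over young log2 ratio of Ndst2 went from -0.46 to -0.95.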

How the results depend on the processing

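With 1 sample per age, no call of significance was made, and the limits are those of counting and of the oocytes included. Neither TMM nor median of ratios scaling moved a Ust ratio outside its counting interval, and each shifted the median of all features by under 0.1 on the log2 scale. The aged over young log2 ratio of Ust was above 0 in all 14 alternatives. It was 1.10 after thinning, 1.62 from medians, and 1.08 to 1.24 leaving out a run of oocyte numbers. In NSN oocytes it was 1.86 from medians and 1.258 to 1.501 leaving out a run. In SN oocytes it was 0.38 after thinning, 0.51 from means, 0.46 from medians, 0.51 with suffix A alone, and 0.14 to 0.97 leaving out a run. SN over NSN in young oocytes was 0.58 with TMM, 0.49 after thinning, 0.47 from means and 0.97 from medians. With suffix A alone it was 0.27, without suffix A 1.00, and leaving out a run 0.27 to 0.88. It fell under 1.5-fold with TMM, after thinning, from means, with suffix A alone and without the young oocytes numbered 33 to 39. It stayed past 1.5-fold in the other alternatives. In aged oocytes it was -0.46 after thinning, -0.36 from means, -0.42 from medians, -0.55 with suffix A alone, 0.21 without it, and -0.75 to 0.19 leaving out a run. The share of aged oocytes above the young median was 80 to 90% leaving out a run. The count of genes higher in aged oocytes was 1 in all 16 alternatives, namely Ust, which was chosen on this difference. The count lower was 1 with all 88 oocytes, after thinning, from means and without suffix A (Chst15) and from medians (Ndst2), and 0 to 2 leaving out a run. Of the 5 genes most like Ust, 5 stayed with median of ratios and 2 after thinning (Il1r2 and Ypel2). Why these values moved was not tested. No paired analysis was possible because the oocytes of both ages share no mouse or number.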

Other observations

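Aged oocyte 48A has no predicted configuration and entered only the alternative with all 88 oocytes. The study's methods state that a single outlier oocyte, which they do not name, was removed by its distance to the others. Of the 88 oocytes in the count table, 48A is the 1 without a configuration call. With 3588332 counts, its Ust level was 66.9 CPM (95% Poisson interval 58.7 to 75.9), and 11 of the other 45 aged oocytes were higher. Hs2st1 at 35.95 CPM and Hs6st1 at 5.85 CPM were below each of the other 45 aged oocytes, and Ndst1, at 1.67 CPM from 6 counts, below 44 of them. Chst11 was at 14.2 CPM and Chst12 at 5.30 CPM, while Ndst2, Chst14 and Chst15 had no count, which allows up to 1.03 CPM each.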
